A study of Mus musculus with 6 samples.

Results

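Axon injury and regeneration genes are the genes that neurons with a peripheral axon switch on, or depend on, after that axon is cut or crushed. This set of 29 was chosen by name as known injury-response, growth-associated and regeneration genes, with earlier results of these data known. Expression was measured with mouse Affymetrix arrays in samples of brainstem motor neurons, the cells that send their axons to muscle. SOD1 was compared with wild type (WT). Markers of other cells were also read in these samples, as given below, so a value need not come from motor neurons. The platform annotation gave 69 probe sets that map to exactly 1 of the 29 symbols, out of 45037 probe sets that were not controls, and each of the 29 genes had at least 1. The 6 arrays comprise 3 WT and 3 SOD1 RNA samples. Sod1 encodes copper-zinc superoxide dismutase, and mutant forms cause motor neuron disease. The sources used here do not give which change of it the SOD1 mice carried, its promoter, the strain, age, sex and number of mice behind a sample, or how the motor neurons were collected. All 6 samples had gone through 2 rounds of T7-based RNA amplification, a method that favours the 3' end of transcripts. No label states whether samples of 1 group are separate animals, and all p-values below rest on the spread among these samples, which may be technical.

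When a motor axon is injured, kinases carry a stress signal back to the cell body, where transcription factors such as Atf3, Jun, Stat3 and Sox11 are induced. They switch on genes for growth cone proteins, neuropeptides and adhesion molecules, among them Gap43, Sprr1a, Gal and Cd44. In mice with mutant SOD1 motor axons withdraw from muscle, and single injury genes such as Atf3 and Gal are known to appear in the affected motor neurons. Several of the 29 genes, among them Cd44, Csf1, Socs3, Klf4 and Stat3, are also made by glia, blood vessels or immune cells.

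Values are log2 signal after quantile normalisation of the 6 arrays, with 16 added before the logarithm. A change is the difference of log2 means between SOD1 and WT, followed by its SE (3 arrays in each group), and the added 16 understates the change of low genes. Of the 69 probe sets, 59 lay above the 40th percentile of mean signal and were tested with limma together with all other probe sets above it, 27022 in all. These 59 cover 27 genes. The other 2 genes, Fgf2, a growth factor, and Arg1, arginase 1, were at the background level on all 6 arrays and were not tested. An array's background level was set so that 95% of its unspiked bacterial control probe sets lay below it, and ranged from 7.21 to 7.61. Where a gene had several probe sets, the set with the highest mean signal stands for it, and the others are described after it or with the probe sets of 1 gene compared near the end.

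The median signal of the 6 arrays lay between 267.4 and 315.2 before normalisation, and 3 arrays a group set the precision. Of 5 Sod1 probe sets 4 were tested, with changes from -0.81 ± 0.41 to 0.27 ± 0.10 (limma, adjusted p = 0.384 and 0.257), and a mouse probe set need not read a human SOD1 transcript. Of the motor neuron markers, Chat was above background on all 6 arrays, Isl1 was at 15.05 ± 0.09 in WT and 15.28 ± 0.12 in SOD1 (SD, n = 3) and Nefl at 17.39 ± 0.03 and 17.40 ± 0.04. Others had lower estimates in SOD1 without overlap, among them Ache (-1.06 ± 0.25), Slc18a3 (-1.0 ± 0.25), Mmp9 (-0.80 ± 0.26) and Nefm (-0.33 ± 0.10), with adjusted p of 0.117, 0.131, 0.210 and 0.171 (limma). The spinal motor neuron gene Mnx1 was at background on 2 WT arrays and all 3 SOD1 arrays. Xist, the RNA of the inactive X chromosome, read 13.85 and 13.43 on SOD1 replicates 1 and 2 but 5.19 on SOD1 replicate 3 and 5.08 to 6.77 in WT. The sex of the mice may therefore differ between and within the groups, and its part in the results cannot be told apart from that of single arrays. As no WT array had high Xist, a fit with a term for Xist compares SOD1 replicate 3 alone with WT. Probe sets whose names end in s_at or x_at can read more than 1 transcript; these include the first probe sets of Sox11, Klf6 and Socs3 named below and the second ones of Tnfrsf12a, Smad1 and Socs3.

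None of the 59 member probe sets passed the test over all probe sets (limma, adjusted p under 0.05), where 0.185% of all probe sets tested did, 0.0629% higher and 0.122% lower. The lowest adjusted p of a member was 0.0938, for L1cam, a neuronal adhesion molecule that was lower in SOD1. At an unadjusted p under 0.05 there were 16 member probe sets, 9 higher and 7 lower in SOD1, or 15.3% and 11.9% of the 59. The background shares were 7.09% higher and 7.58% lower among all probe sets tested. Several of these probe sets read the same gene. Counted with 1 probe set a gene, 5 genes were higher (Sox11, Gap43, Adcyap1, Chl1 and Socs3) and 4 lower (Klf4, Basp1, Vgf and L1cam) of 27, against background shares of 7.65% higher and 8.89% lower of 13123 genes. The members had a median log2 change of 0.09, with 17 positive and 10 negative estimates, beside a median of -0.012 over all genes. The groups did not overlap for 18 of the 59 probe sets, 11 with SOD1 above WT and 7 below, 30.5% in all, beside background shares of 10.5% above, 9.81% below and 20.3% in all. As the members were chosen with earlier results of these data known, these shares describe the set and are not a test of it. In bulk RNA, a different number of cells of a type and a different amount of RNA per cell cannot be told apart.

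**Figure D1:**
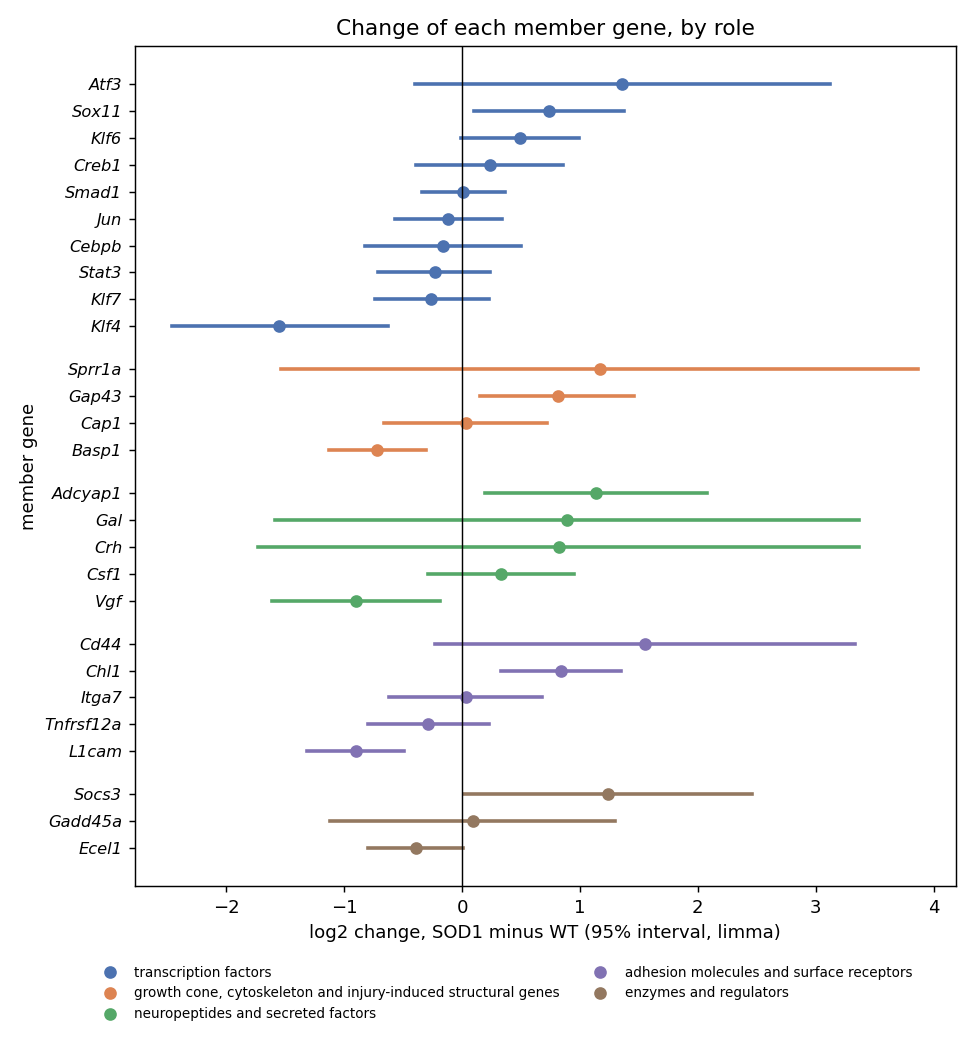
Log2 change (SOD1 minus WT, horizontal axis) of the 27 member genes tested, 1 probe set a gene, coloured and grouped by role; dots are limma estimates from 3 arrays per group and bars their 95% intervals. Intervals are widest for Sprr1a, Gal and Crh, and those of L1cam, Klf4, Basp1 and Vgf lie below 0 while those of Chl1, Gap43, Adcyap1, Sox11 and Socs3 lie above it.

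The genes most closely tied to axotomy, Atf3, Sprr1a and Gal, varied more within WT than the group means differed. Atf3, a stress-induced transcription factor that marks axotomised neurons, read 11.88, 8.49 and 9.12 on WT replicates 1, 2 and 3 and 11.34, 9.93 and 12.31 on SOD1 replicates 1, 2 and 3. Sprr1a, a small proline-rich protein made by regenerating neurons, read 12.89, 7.52 and 7.85 in WT and 9.92, 9.34 and 12.51 in SOD1. Gal, which encodes the neuropeptide galanin, read 13.54, 9.03 and 11.53 in WT and 12.87, 9.74 and 14.15 in SOD1. For each of the 3 genes the groups overlapped, the highest arrays were WT replicate 1, SOD1 replicate 3 and SOD1 replicate 1, and WT replicate 2 was the lowest. Gap43 and the first Csf1 probe set had the same 3 highest arrays and the same lowest one. Between the highest and the lowest WT array the difference was 41.4-fold for Sprr1a, 22.7-fold for Gal and 10.5-fold for Atf3. Their within-group SDs were 2.44 for Sprr1a, 2.26 for Gal and 1.53 for Atf3, at percentiles 99.9, 99.9 and 97.9 of all probe sets tested, whose median was 0.42.

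With 3 arrays a group, the differences between SOD1 and WT were 1.36 ± 0.80 for Atf3 (limma, adjusted p = 0.462), 1.17 ± 1.23 for Sprr1a (0.702) and 0.89 ± 1.13 for Gal (0.754). The 95% interval for Atf3 ran from -0.40 to 3.12, that for Sprr1a from -1.54 to 3.87 and that for Gal from -1.59 to 3.37. Leaving out WT replicate 1 or SOD1 replicate 3 moved each of these values by more than 1.5 times. Other arrays could matter less, as Atf3 was at 1.29 ± 0.96 without SOD1 replicate 1. Without WT replicate 1 the differences were 2.40 ± 0.62 for Atf3, 2.90 ± 0.81 for Sprr1a and 1.98 ± 1.12 for Gal (limma, adjusted p = 0.221, 0.245 and 0.486), and without SOD1 replicate 3 they were 0.79 ± 0.86, 0.20 ± 1.29 and -0.06 ± 1.16 (0.753, 0.968 and 0.990). With the term for Xist, which sets SOD1 replicate 3 against WT, they were 2.48 ± 1.09, 3.08 ± 1.64 and 2.79 ± 1.47 (0.349, 0.442 and 0.438). The mean of the motor neuron markers was 13.64 on WT replicate 1, 13.64 on WT replicate 2 and 13.65 on WT replicate 3.

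The promoters of these 3 genes are shown because the genes share their 3 highest arrays and their lowest, a pattern that Gap43 and Csf1 had too. A further reason is that the factors the 3 genes encode or answer to bind known short motifs. Each run covers 250 bases before to 50 bases after the RefSeq start (GRCm38.p6), 5' to 3' on the strand of the gene, which is the minus strand for all 3. Capitals mark the letters TGACTCA or their reverse complement TGAGTCA, the AP-1 motif of Jun and its partners, and TGACG or its reverse complement CGTCA, the short form of the CRE motif TGACGTCA to which Atf3 and Creb1 bind. The short form lies within the full one. Both strands were searched. Atf3 lies at chr1:191183284-191183583, Sprr1a at chr3:92485832-92486131 and Gal at chr19:3414495-3414794.
Atf3: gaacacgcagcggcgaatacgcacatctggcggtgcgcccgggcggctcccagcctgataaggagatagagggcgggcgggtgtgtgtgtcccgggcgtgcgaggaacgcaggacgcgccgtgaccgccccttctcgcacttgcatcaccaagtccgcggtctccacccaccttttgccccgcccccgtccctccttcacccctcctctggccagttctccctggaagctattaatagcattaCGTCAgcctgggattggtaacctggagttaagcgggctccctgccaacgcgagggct
Sprr1a: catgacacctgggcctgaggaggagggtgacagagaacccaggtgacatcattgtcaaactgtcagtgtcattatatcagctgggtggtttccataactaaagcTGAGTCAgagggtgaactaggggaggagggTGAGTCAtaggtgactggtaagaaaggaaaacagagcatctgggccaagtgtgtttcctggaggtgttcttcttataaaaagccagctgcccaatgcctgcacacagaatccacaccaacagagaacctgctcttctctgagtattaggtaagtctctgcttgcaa
Gal: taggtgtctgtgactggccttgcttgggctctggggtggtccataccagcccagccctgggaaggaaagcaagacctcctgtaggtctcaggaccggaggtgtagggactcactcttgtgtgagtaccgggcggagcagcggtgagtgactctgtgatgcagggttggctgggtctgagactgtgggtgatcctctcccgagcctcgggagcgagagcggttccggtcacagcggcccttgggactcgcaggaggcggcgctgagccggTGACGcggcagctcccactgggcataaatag
Sprr1a held 2 matches to the AP-1 letters, which begin 146 and 116 bases before the start. Atf3 held a short CRE that begins 7 bases before it, and Gal held a short CRE that begins 19 bases after it. Promoter windows were found for 24 of the 29 genes, 26 windows in all. Sprr1a was the 1 gene of the 24 with the AP-1 letters, which were in 5.2% of all 32851 windows. The short CRE was in 9 of the 26 member windows, of Adcyap1, Atf3, Basp1, Cebpb, Fgf2, Gal, Klf4 and Smad1, or 34.6%, beside 20.8% of all windows, and the full CRE was in 0 of the 26 and in 1.79% of all. These are matches of letters, not bound sites.

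Cd44, a hyaluronan receptor made by injured motor neurons and by reactive glia, had nearly the same order of arrays. It read 10.64, 8.48 and 6.92 in WT and 10.32, 9.17 and 11.19 in SOD1, again with WT replicate 1, SOD1 replicate 3 and SOD1 replicate 1 highest, and with WT replicate 3 at background. The difference was 1.55 ± 0.81 (limma, adjusted p = 0.404), and a second probe set gave 2.13 ± 0.85 (adjusted p = 0.278, unadjusted p = 0.0281) with 2 WT arrays at background. Without WT replicate 1 the 2 probe sets gave 2.53 ± 0.68 and 3.03 ± 0.79, and without SOD1 replicate 3 they gave 1.06 ± 0.90 and 1.5 ± 0.93. Gap43, the growth cone protein that is phosphorylated by protein kinase C, had a smaller within-group SD of 0.48. It read 13.09, 12.31 and 12.35 in WT and 13.60, 12.81 and 13.76 in SOD1, with SOD1 replicate 2 below WT replicate 1. Its level was 1.75-fold higher in SOD1 (0.81 ± 0.30, limma, unadjusted p = 0.02, adjusted p = 0.249), and it was 1.06 ± 0.30 without WT replicate 1 and 0.62 ± 0.32 without SOD1 replicate 3.

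Over all 27 genes, WT replicate 1 was the highest WT array for 15 and SOD1 replicate 3 the highest SOD1 array for 14, or 55.6% and 51.9%. Among all probe sets tested the shares were 31.9% for WT replicate 1 and 33.0% for SOD1 replicate 3. These 2 arrays were picked out after their values were seen. On SOD1 replicate 3 the mean of markers of other neurons was also higher, at 9.93 over 8 genes. It was 8.56 and 8.74 on SOD1 replicates 1 and 2 and 7.87 to 8.98 in WT. Among them Gad1, which makes the transmitter GABA, read 7.12, 6.45 and 11.48 on SOD1 replicates 1, 2 and 3 and 5.97 to 7.56 in WT. Gad2, Slc32a1 and Slc17a6 were also highest on SOD1 replicate 3, but the list was split. Th, Tph2 and Slc6a5 read 7.06, 9.65 and 9.30 on SOD1 replicate 3 and 7.73, 10.94 and 9.57 on SOD1 replicate 2. The neuropeptide gene Npy read 8.95, 8.24 and 13.89 in SOD1 and 7.99 to 8.31 in WT. Gal, Crh and Vip, which other neurons also make, were highest on that array, and the part of other neurons in these values was not tested. The mean signal over the 27 genes was 12.33, 11.54 and 11.75 on WT replicates 1, 2 and 3 and 12.05, 11.78 and 12.49 on SOD1 replicates 1, 2 and 3, so the groups overlapped for the set as a whole.

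**Figure D2:**
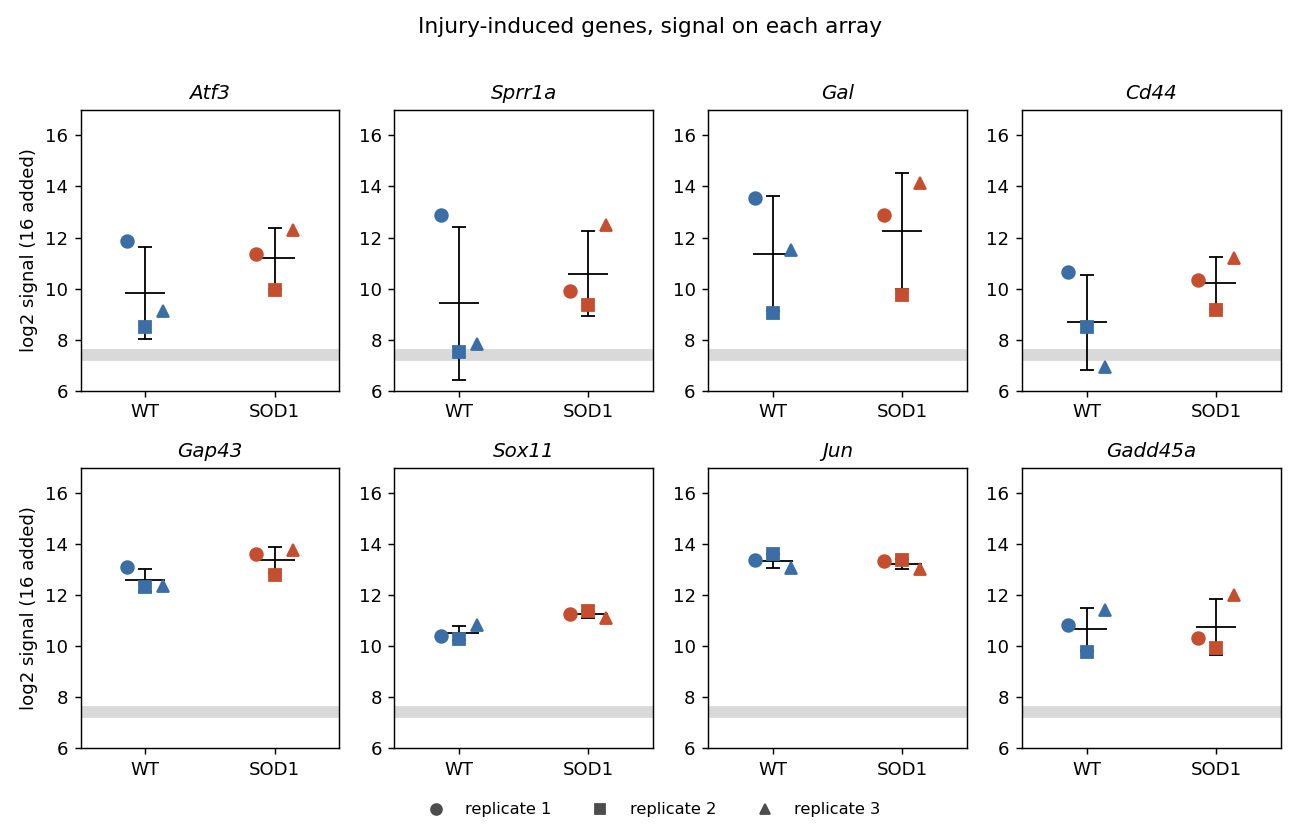
Log2 signal with 16 added (vertical axis) of 8 member genes on each array, by group; symbols are the replicates, black bars the mean ± SD of 3 arrays and the grey band the range of the background level. WT replicate 1 sits at 12.89 for Sprr1a, far above the other WT arrays at 7.52 and 7.85, while Jun lies between 13.02 and 13.62 on all 6 arrays.

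Among the transcription factors, of which all 10 were tested, Klf4 and Sox11 had an unadjusted p under 0.05, Klf4 lower and Sox11 higher. Klf4, a zinc finger factor known to restrain axon growth and also made by endothelial cells, read 10.93, 10.02 and 9.85 in WT and 9.07, 8.27 and 8.82 in SOD1, and every SOD1 array was below every WT array. It was 2.92-fold lower in SOD1 (-1.55 ± 0.42, limma, unadjusted p = 0.00335, adjusted p = 0.146). Its second probe set, which the filter removed, gave -1.55 ± 0.92 with overlapping groups. For that probe set 1 WT array and all 3 SOD1 arrays were at background. Endothelial and mural markers were also lower in SOD1, as given below.

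Sox11, a factor of neuronal differentiation that is switched on again by injury, read 10.41, 10.29 and 10.85 in WT and 11.28, 11.37 and 11.11 in SOD1, with no overlap. It was 1.66-fold higher (0.74 ± 0.29, limma, unadjusted p = 0.0270, adjusted p = 0.275). All 6 of its probe sets had a positive estimate, from 0.01 ± 0.68 to 2.45 ± 0.54. The largest, a probe set at 6.71, 8.51 and 6.94 in WT with 2 of these at background, read 9.76, 9.68 and 10.07 in SOD1 (limma, unadjusted p = 0.000815, adjusted p = 0.106). That difference was 2.32 ± 0.64 without SOD1 replicate 3 and 2.11 ± 0.56 without WT replicate 1.

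Klf6, a relative of Klf4 that promotes axon growth, read 12.25, 12.19 and 11.85 in WT and 12.44, 12.63 and 12.69 in SOD1, again with no overlap. The difference was 0.49 ± 0.23 (limma, unadjusted p = 0.0524, adjusted p = 0.347). The groups were separate in the same direction for 3 of the other 4 Klf6 probe sets (0.40 ± 0.23, 0.55 ± 0.36 and 0.86 ± 0.59), and the remaining set was at 0.37 ± 0.61. Klf7, the other growth-promoting member of that family, was at -0.26 ± 0.22.

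Jun, the AP-1 subunit that is phosphorylated after axotomy, read 13.37, 13.62 and 13.06 in WT and 13.32, 13.36 and 13.02 in SOD1, a difference of -0.12 ± 0.21. A second Jun probe set read 12.92, 13.30 and 13.55 in WT and 12.52, 12.87 and 12.69 in SOD1 and was lower by 0.56 ± 0.22 on the log2 scale, without overlap (limma, unadjusted p = 0.0286, adjusted p = 0.280). Stat3, which carries cytokine signals to the nucleus, was at -0.23 ± 0.22, Cebpb, a factor of inflammation and regeneration, at -0.16 ± 0.30, Creb1, the cyclic AMP response factor, at 0.24 ± 0.28 and Smad1, a BMP effector, at 0.01 ± 0.16. The 95% intervals of these 4 factors and of the first Jun probe set stayed between -0.82 and 0.86. A second Smad1 probe set read 13.84, 13.61 and 13.77 in WT and 13.25, 13.38 and 12.49 in SOD1 (-0.70 ± 0.24, limma, unadjusted p = 0.0136, adjusted p = 0.223), without overlap, while the first probe set overlapped.

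Of the growth cone and cytoskeletal members, Gap43, given above, had a positive estimate and Basp1 a negative one. Both are membrane-bound proteins that organise actin at the growth cone. Basp1 read 16.09, 15.75 and 15.72 in WT and 15.57, 14.78 and 15.05 in SOD1, with every SOD1 array below every WT array. It was 1.65-fold lower (-0.72 ± 0.19, limma, unadjusted p = 0.00271, adjusted p = 0.142), between -0.93 and -0.50 over all alternatives. Cap1, an actin-binding cyclase-associated protein, was at 0.03 ± 0.31 and in a second probe set at 0.12 ± 0.55, with overlapping groups.

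Among the neuropeptides and secreted factors, Adcyap1 was higher and Vgf lower in SOD1. Adcyap1, which encodes the neuroprotective peptide PACAP, read 8.78, 8.14 and 9.23 in WT and 9.97, 9.35 and 10.24 in SOD1, without overlap. It was 2.20-fold higher (1.14 ± 0.43, limma, unadjusted p = 0.0224, adjusted p = 0.258), while its dimmer second probe set was at 0.41 ± 0.54. Vgf, a secreted peptide precursor induced by neurotrophins, read 14.49, 13.90 and 14.14 in WT and 14.13, 13.05 and 12.66 in SOD1, where SOD1 replicate 1 lay within the WT range. It was 1.87-fold lower (-0.90 ± 0.32, limma, unadjusted p = 0.0181, adjusted p = 0.241), and at -0.58 ± 0.31 without SOD1 replicate 3.

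Crh, corticotropin-releasing hormone, was near background in WT, at 7.03, 6.74 and 7.59, and read 4.79, 8.57 and 10.46 in SOD1, so that SOD1 held both the lowest and the highest array. The difference was 0.82 ± 1.16, and 2 WT arrays and SOD1 replicate 1 were at background. Without SOD1 replicate 1 it was 2.40 ± 0.69 (limma, adjusted p = 0.159), and without WT replicate 1 it was 0.78 ± 1.37. With the term for Xist, which sets SOD1 replicate 3 against WT, it was 3.34 ± 1.30. Without SOD1 replicate 3 the mean signal of Crh fell below the filter and the gene was not tested. Csf1, the cytokine by which injured neurons recruit microglia, read 11.13, 10.77 and 10.96 in WT and 11.30, 10.99 and 11.56 in SOD1 (0.33 ± 0.28, limma, adjusted p = 0.626), and its 3 other probe sets ranged from -0.52 ± 0.65 to 0.82 ± 0.51. Its receptor Csf1r, a microglial marker, was at 13.13 ± 1.30 in WT and 14.89 ± 0.37 in SOD1 (SD, n = 3).

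The pair of L1-family adhesion molecules had estimates of opposite sign. L1cam, which guides and bundles axons, read 14.98, 15.49 and 14.84 in WT and 14.44, 14.02 and 14.16 in SOD1. It was 1.87-fold lower in SOD1, without overlap (-0.90 ± 0.19, limma, unadjusted p = 0.000565, adjusted p = 0.0938), and stayed between -1.04 and -0.72 over all alternatives, with adjusted p from 0.0567 to 0.348. A second L1cam probe set was at background on all WT arrays and 2 SOD1 arrays and was not tested. Its estimate had the opposite sign, 1.12 ± 0.74, with overlapping groups. Chl1, the close homolog of L1, which is made by neurons and also by astrocytes and oligodendrocyte precursors, read 12.97, 12.76 and 12.21 in WT and 13.36, 13.62 and 13.48 in SOD1. It was 1.79-fold higher, without overlap (0.84 ± 0.23, limma, unadjusted p = 0.00386, adjusted p = 0.151). A second Chl1 probe set separated the groups as well, at 10.09, 10.03 and 8.97 in WT and 10.69, 10.94 and 11.70 in SOD1 (1.41 ± 0.40, limma, adjusted p = 0.159), whereas the third, of low signal, was at -0.47 ± 0.60.

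Itga7, the laminin-binding integrin subunit induced in regenerating motor neurons, was at 10.93 ± 0.23 in WT and 10.95 ± 0.31 in SOD1 (SD, n = 3), a difference of 0.03 ± 0.30. Tnfrsf12a, the receptor of the cytokine TWEAK, read 13.16, 13.84 and 13.12 in WT and 13.29, 12.97 and 12.99 in SOD1 (-0.29 ± 0.23). Its second probe set read 12.83, 13.43 and 13.29 in WT and 12.59, 12.50 and 12.41 in SOD1 and was separate between the groups (-0.68 ± 0.22, limma, unadjusted p = 0.0101, adjusted p = 0.203).

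**Figure D3:**
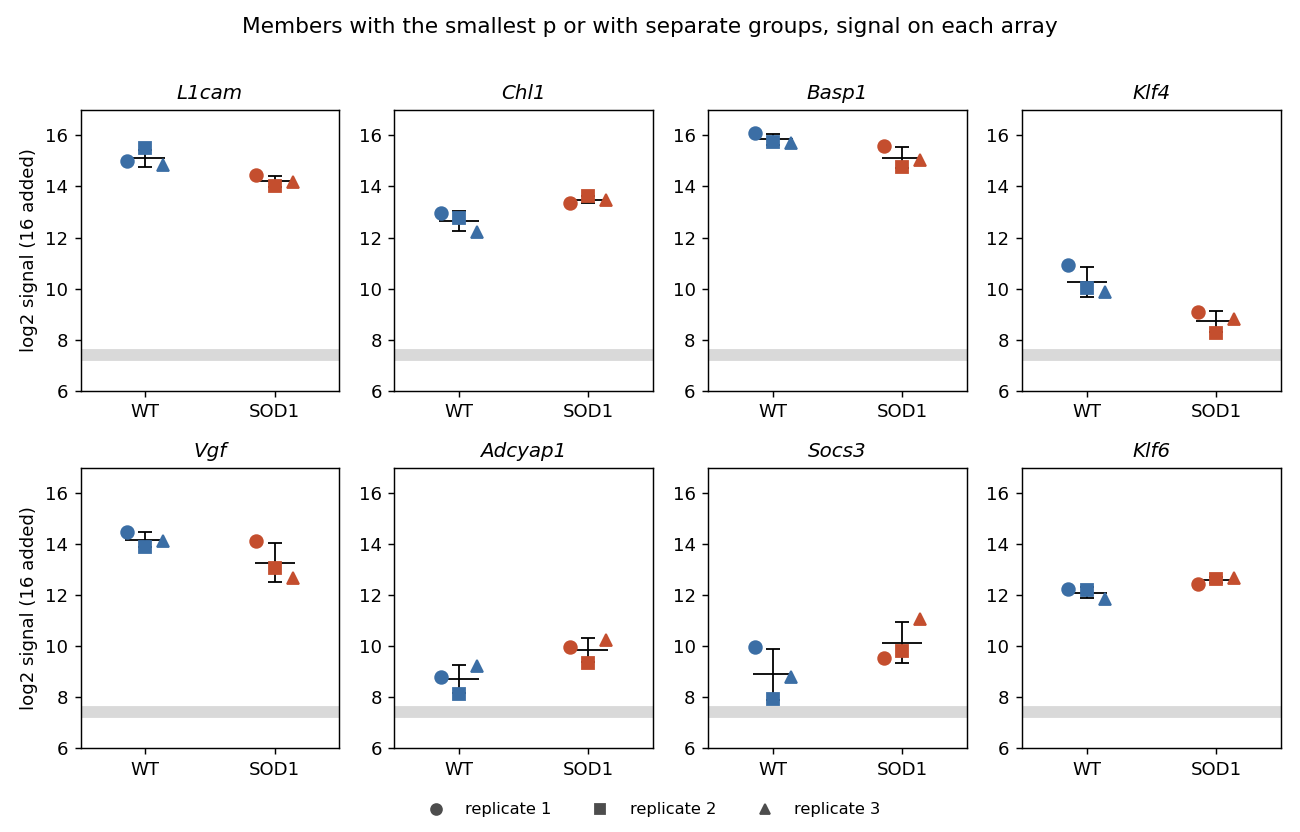
Log2 signal with 16 added (vertical axis) on each array of the 7 member genes whose p was smallest besides Gap43 and Sox11, and of Klf6, by group; symbols are the replicates, black bars the mean ± SD of 3 arrays and the grey band the range of the background level. L1cam, Basp1 and Klf4 have every SOD1 array below every WT array and Chl1, Adcyap1 and Klf6 every SOD1 array above, while Vgf and Socs3 overlap.

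Of the enzymes and regulators, Socs3 was higher. Socs3, the feedback inhibitor of JAK and Stat3 signalling that limits axon regrowth, read 9.96, 7.95 and 8.80 in WT and 9.55, 9.83 and 11.05 in SOD1, with WT replicate 1 within the SOD1 range. It was 2.36-fold higher (1.24 ± 0.56, limma, unadjusted p = 0.0476, adjusted p = 0.336). A second probe set read 8.58, 7.84 and 8.78 in WT and 9.32, 9.40 and 9.77 in SOD1, without overlap (1.10 ± 0.42, limma, unadjusted p = 0.0252, adjusted p = 0.268). The third probe set, of low signal, was at -0.28 ± 0.77. Without SOD1 replicate 3 the first was at 0.78 ± 0.58 and the second at 0.95 ± 0.49. The Socs3 promoter is shown because Stat3, another member, acts on it. It lies at chr11:117969317-117969616 (GRCm38.p6, minus strand, 250 bases before to 50 after the RefSeq start, 5' to 3'), and the capitals mark the palindromic STAT letters TTCNNNGAA, found as TTCTTAGAA from 154 bases before the start.
Socs3: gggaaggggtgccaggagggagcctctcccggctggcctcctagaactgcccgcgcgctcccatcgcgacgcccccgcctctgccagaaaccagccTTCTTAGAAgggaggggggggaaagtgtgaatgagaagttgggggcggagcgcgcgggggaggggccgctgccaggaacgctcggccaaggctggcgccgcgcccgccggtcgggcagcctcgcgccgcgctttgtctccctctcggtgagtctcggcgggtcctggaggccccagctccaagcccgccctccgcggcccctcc
These letters were in 2 of the 26 member windows, those of Socs3 and Cap1, and in 8.3% of all windows. Stat3 itself was at 14.19 ± 0.26 in WT and 13.96 ± 0.38 in SOD1 (SD, n = 3). Gadd45a, a DNA damage gene that is strongly induced by axotomy, read 10.84, 9.76 and 11.41 in WT and 10.33, 9.92 and 12.01 in SOD1, a difference of 0.09 ± 0.55. Ecel1, a membrane protease of injured neurons, was at 14.81 ± 0.30 in WT and 14.42 ± 0.24 in SOD1 (SD, n = 3), a difference of -0.39 ± 0.19 (limma, unadjusted p = 0.0574, adjusted p = 0.358).

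For 15 member genes more than 1 probe set was tested, and 23 of their 32 other probe sets had the sign of the probe set with the highest signal. The sign was the same in every tested probe set of Sox11, Klf6, Stat3, Jun, Cap1, Adcyap1, Cd44 and Tnfrsf12a. Cebpb and Smad1 had 0 other probe sets of the same sign, and Csf1 had 1 of 3. The other Cebpb probe set was at 0.84 ± 0.79, with 2 WT arrays and 1 SOD1 array at background. The other tested Stat3 sets were at -1.19 ± 0.86 and -0.11 ± 0.20, and those of Creb1 at -0.78 ± 0.44, 0.29 ± 0.31 and 0.23 ± 0.51. Of the other Klf7 sets, 1 read 13.07, 13.17 and 13.12 in WT and 13.05, 12.52 and 12.97 in SOD1 (-0.27 ± 0.21, limma, adjusted p = 0.587), narrowly without overlap, and the rest were at 0.03 ± 0.22 and -0.07 ± 0.32. The other Smad1 set not yet given was at -0.12 ± 0.35.

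**Figure D4:**
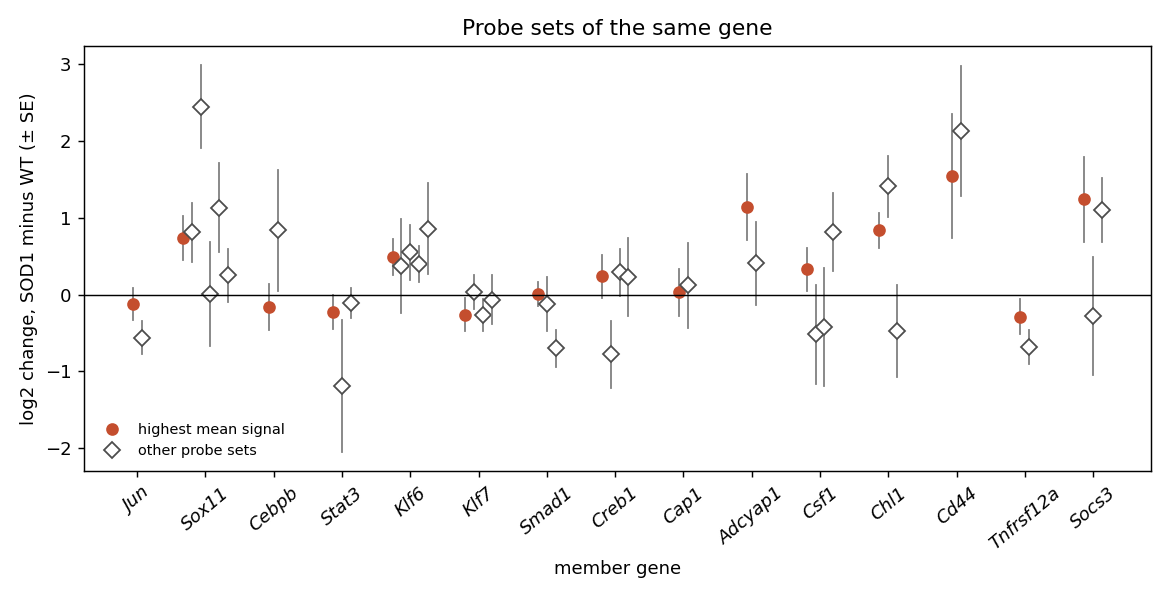
Log2 change (SOD1 minus WT, vertical axis, ± SE) of every tested probe set of the 15 member genes with more than 1; filled circles are the probe set with the highest mean signal and open diamonds the others. The 6 probe sets of Sox11 and the 5 of Klf6 lie at or above 0, while those of Chl1, Csf1, Creb1 and Socs3 fall on both sides.

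Some markers of other cells were far above background in WT already, among them Mbp at 16.68 ± 0.05, S100b at 15.89 ± 0.09 and Acta2 at 13.66 ± 1.57 (SD, n = 3). Markers of other cells also differed between the groups. Of 14 microglial and myeloid markers tested, all 14 had a higher estimate in SOD1, 6 passed the test (limma, adjusted p under 0.05) and 13 did not overlap with WT, with a mean log2 signal of 8.53 to 10.47 on the WT arrays and 12.11 to 12.94 on the SOD1 arrays. Among them Itgam was at background on 2 WT arrays and Cd68 and Ptprc on 1, and Trem2, not tested, was at background on 2 WT arrays and 1 SOD1 array. The 10 astrocyte markers had a mean of 12.87 to 13.41 in WT and 13.95 to 14.05 in SOD1, and 9 of them had a higher estimate, of which 2 passed. The 9 oligodendrocyte markers had a mean of 12.54 to 13.14 in WT and 13.49 to 13.68 in SOD1, and all 9 had a higher estimate, of which 0 passed and 7 had an unadjusted p under 0.05. All 9 endothelial and mural markers had a lower estimate, of which 1 passed, with a mean of 10.03 to 10.92 in WT and 7.72 to 9.09 in SOD1. Pecam1, not tested, was at background on 2 WT arrays and all 3 SOD1 arrays, Tagln was at background on 2 SOD1 arrays and Pdgfrb on 1. These calls depended on single arrays and settings. The 6 microglial calls numbered 0 without a variance trend, with the term for Xist, without WT replicate 2 and without SOD1 replicate 2, 1 without SOD1 replicate 1 and 3 without WT replicate 1, a count added after seeing the data. The 2 astrocyte calls numbered 0 in those 4 settings and without SOD1 replicate 1, and 1 without WT replicate 1. The 1 endothelial and mural call, Acta2, became a count of 0 without a variance trend and with robust eBayes. The count was also 0 when WT array 1 or 2 or SOD1 array 2 or 3 was left out. The fit without shared probe sets gave 0 too, but it leaves out the Acta2 probe set, an s_at set, by design. Other settings gave more calls. Microglial calls numbered 7 with a pseudocount of 64, a filter at the 60th percentile, array weights or without WT replicate 3, and 9 with the replicate block. Endothelial and mural calls numbered 3 with that filter, with array weights and without WT replicate 3. These lists lie beside Cd44, Socs3, Chl1 and Csf1, which glia also express, and beside Klf4, which endothelial cells express. Some dimmer probe sets of Csf1, Socs3 and Chl1 had lower estimates, as did all tested probe sets of Stat3, named with such genes at the start. The part of these cell types in those values was not tested. The 13 motor neuron markers had a mean of 13.64 to 13.65 in WT and 13.34 to 13.52 in SOD1, with a median log2 change of -0.16. Of them 9 had a lower estimate, 4 at an unadjusted p under 0.05 (limma). The other 4 had a higher estimate, among them Slc5a7 (0.72 ± 0.44) and Tbx20 (0.51 ± 0.28). The motor neuron markers lie beside the lower L1cam, Basp1 and Vgf and the higher Gap43, Sox11 and Adcyap1. Their part in those values was not tested either.

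**Figure D5:**
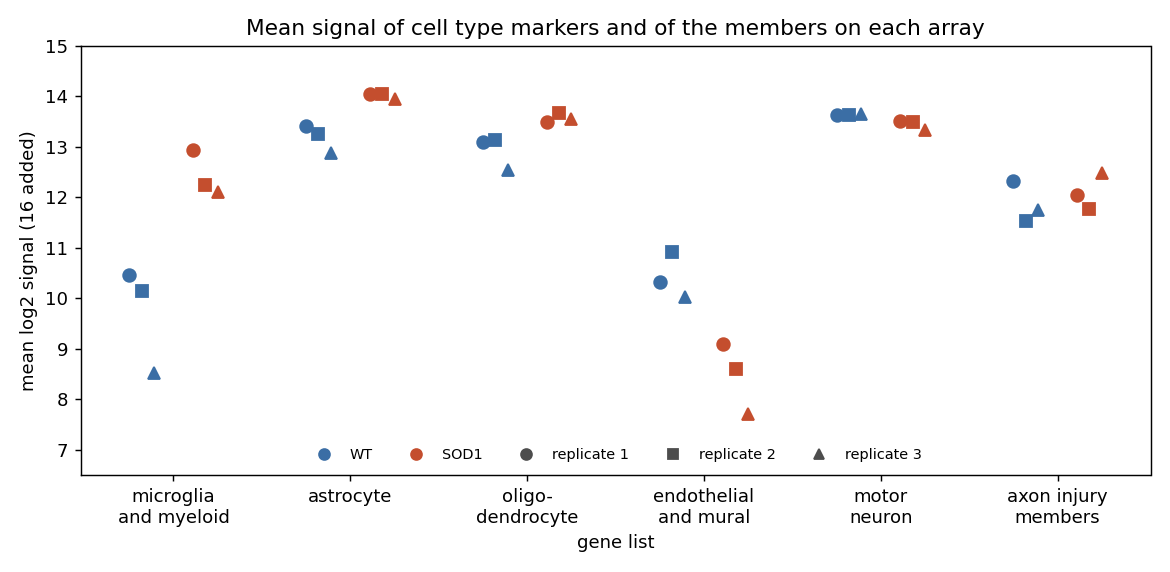
Mean log2 signal with 16 added (vertical axis) of 5 cell type marker lists and of the 27 member genes tested, on each array; blue is WT, red SOD1 and symbols the replicates. The microglial mean lies between 8.53 and 10.47 in WT and between 12.11 and 12.94 in SOD1, while the member means of the groups overlap.

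Beyond the 29 genes, 66 names of the wider pathway were listed, of which 60 were on the array and 58 were tested. None of the 58 passed over all genes (limma, adjusted p under 0.05). At an unadjusted p under 0.05 there were 7 higher and 6 lower, 22.4% beside the background share of 16.5% of genes. By direction these were 12.1% higher and 10.3% lower, beside background shares of 7.65% and 8.89%. Of 8 genes of interleukin-6 family and JAK-STAT signalling tested, 1 (12.5%) was lower at that level. This was Cntfr, the receptor subunit of ciliary neurotrophic factor (-0.84 ± 0.33). The shared receptor subunit Il6st was at -0.39 ± 0.24, and the ligands Il6 and Lif were too dim to be tested. In the DLK and JNK stress kinase pathway, which passes the injury signal to Jun, 1 of 10 genes was higher and 2 lower, or 10% and 20%. The lower ones were the scaffolds Mapk8ip3 (-0.79 ± 0.28) and Mapk8ip1 (-1.03 ± 0.41), and the higher one was Ddit3, a stress factor (0.73 ± 0.31).

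Of 5 genes of axon degeneration and NAD metabolism, Nmnat1, the nuclear NAD-making enzyme, was lower (-1.11 ± 0.31, limma, adjusted p = 0.151). Nampt, which supplies its substrate, was higher (0.59 ± 0.24, limma, adjusted p = 0.292). Each direction is 20% of that list. Among 26 other growth-associated and injury-induced genes 4 were higher and 2 lower, or 15.4% and 7.69%. The background shares of all genes were 7.65% and 8.89%. Marcks, a membrane and actin protein related in function to Gap43 and Basp1, was at 1.09 ± 0.27 (limma, adjusted p = 0.131), its relative Marcksl1 at 1.00 ± 0.30, the tubulin gene Tubb2b at 1.25 ± 0.35 (adjusted p = 0.156) and the neuropeptide gene Vip at 1.96 ± 0.72 with 1 WT array at background. The lower ones were Crmp1, a cytoplasmic mediator of semaphorin signals (-0.76 ± 0.27), and Hspb1, a small heat shock protein (-0.50 ± 0.20). Of 9 genes that act as brakes on axon regrowth, 1 (11.1%) was higher, Omg, an oligodendrocyte and neuronal membrane protein (0.40 ± 0.15). The receptor phosphatase Ptprs was at -0.30 ± 0.17. Mag is in both this list and the oligodendrocyte list.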

How the data were processed

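RNA of the 6 samples went through 2 T7 amplification rounds and onto 1 array each, per the labels. The deposited table holds linear intensities, from 0.688 to 232137, which the authors had scaled, since the 2% trimmed mean was 2500.02 on every array. The sources used here do not give the summary algorithm, and there are no detection calls. Of 45101 probe sets 64 controls were left out, and of the rest 34945 had 1 gene symbol in the platform annotation, 932 several and 9160 none here. Of those with 1 symbol, 34741 matched a RefSeq table (GRCm38.p6) and 0 were updated.

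The arrays were quantile normalised, 16 was added, log2 taken, and probe sets whose mean exceeded the 40th percentile (7.38) tested with limma 3.58.1 in R 4.3.3 (lmFit, eBayes with a variance trend, two-sided, Benjamini-Hochberg over 27022, threshold 0.05). The background level used 27 bacterial control probe sets. The script was tested on simulated data. Every member gene is named. Array values are printed for those at an unadjusted p under 0.05, with groups that did not overlap, and for Atf3, Gap43, Sprr1a, Gal, Jun and Sox11. Wider pathway genes are named as the 2 with the smallest p a list, and the others at an unadjusted p under 0.05 were named after their values were seen. Members and lists were chosen with earlier results of these data known. Markers of fibroblasts and Schwann cells (5 tested, median log2 change -0.68) and of other neurons (8 tested, 0.45) were also listed. Promoters are from RefSeq (GRCm38.p6). Figures were drawn with matplotlib 3.10.9. Alternatives were the scaling, pseudocount, filter, variance model, array weights, replicate block, a term for Xist, shared probe sets, probe set means per gene and each array left out.

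Same-numbered WT and SOD1 samples did not deviate together, with correlations of 0.03, -0.04 and -0.01 over the 27022 probe sets.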

Additional observations from a re-analysis of the deposited data

How the results depend on the processing

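No member probe set passed the threshold in any of 18 alternatives, and the lowest adjusted p of a member was 0.0567, for L1cam with a filter at the 60th percentile (limma). Of 1024 values of the 59 probe sets under the alternatives, 976 kept their direction and 48, of 20 probe sets, did not. With values as deposited the log2 changes that reversed were -0.07 for Sox11, -0.01 for Klf7, -0.005 for Cap1, -0.02 for Cap1, -0.08 for Itga7 and -0.01 for Gadd45a. With a pseudocount of 64 they were -0.04 for Sox11. With a term for Xist, which leaves SOD1 replicate 3 alone against WT, they were -0.07 for Sox11, 0.26 for Cebpb, -0.47 for Klf6, -0.06 for Klf7, 0.16 for Klf7, -0.07 for Smad1, 0.08 for Smad1, -0.06 for Creb1, -0.33 for Creb1, -0.62 for Cap1, -0.02 for Cap1, -0.07 for Adcyap1, 0.40 for Csf1 and 0.49 for Socs3. With array weights they were -0.04 for Klf7. With each array left out in turn, probe sets that changed sign ranged over -0.26 to 0.02 for Jun, -0.60 to 0.38 for Sox11, -0.37 to 0.08 for Cebpb, -0.23 to 0.04 for Stat3, -0.10 to 0.78 for Klf6, -0.14 to 0.11 for Klf7, -0.30 to 0.28 for Klf7, -0.11 to 0.10 for Smad1, -0.04 to 0.41 for Creb1, -0.29 to 0.35 for Cap1, -0.46 to 0.45 for Cap1, -0.28 to 2.14 for Gal, -1.16 to 0.23 for Csf1, -0.94 to 0.52 for Csf1, -0.14 to 0.16 for Itga7, -0.54 to 0.50 for Gadd45a and -0.85 to 0.69 for Socs3. These probe sets include dimmer ones of a gene besides the one that stands for it, so a gene can occur more than once.

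The number of member probe sets at an unadjusted p under 0.05 was 16, between 9 (without WT replicate 2 and without SOD1 replicate 3) and 18 with an array left out. The number of probe sets called over all 27022 was 50. It was 87 with a pseudocount of 64, 0 without a variance trend and 100 with array weights, each over the same number tested. With an array left out it was from 0 to 79 (0 without WT replicate 2, 6 without SOD1 replicate 2, 9 without WT replicate 1, 29 without SOD1 replicate 3). A filter at the 60th percentile gave 106 of 18015 tested, and leaving out shared probe sets gave 25 of 20339 tested. With the replicate number as a block 76 of 27022 were called, and 0 members passed. The groups share only replicate numbers, so the samples were not treated as paired. The median change over all probe sets was -0.01; median centring moved it to 0.04 and the deposited scaling to -0.06, both shifts under 0.1. The cause of these differences was not tested. With 3 arrays a group, the SE of a tested member's log2 change ranged from 0.16 to 1.23.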
